A study of Mus musculus with 2 samples.

Results

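The ARP2/3 complex was followed gene by gene through the cell classes of mouse brain immune cells. Its genes are *Actr2*, *Actr3*, *Actr3b*, *Arpc1a*, *Arpc1b*, *Arpc2*, *Arpc3*, *Arpc4*, *Arpc5* and *Arpc5l*, which were found by symbol and make up 10 of the 32285 genes counted. Brains of 6 male wild-type mice (*Disc1* WT/WT, below WT) and, apart from these, of 6 male littermates homozygous for a *Disc1* locus impairment (*Disc1* LI/LI, below LI) were each made into 1 pool at 23 weeks of age. The impairment is in every cell of the animal, and the study uses it in the place of a *Disc1* knockout. The tissue was taken apart in the presence of actinomycin D, an inhibitor of transcription, and the CD45low CD11b+ cells were sorted for 1 library per genotype. *Disc1* itself had 642 UMIs in the kept WT cells, or 19.1 per 1000000 UMIs, and 22 in the kept LI cells, or 0.461 per 1000000. A UMI is a tag that counts each captured transcript once, at its 3′ end, so levels are given as counts per 1000000 UMIs (CPM) and were not divided by transcript length.

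The ARP2/3 complex binds the side of an existing actin filament and starts a new filament there, which builds the branched networks of lamellipodia, phagocytic cups and endocytic patches. ACTR2 (ARP2) and ACTR3 (ARP3) resemble actin and form the first subunits of the new branch, ARPC2 and ARPC4 form the core that holds the mother filament, and ARPC1, ARPC3 and ARPC5 sit around them. The complex has 7 subunit positions, and 3 of them can be filled by either of 2 paralogs, namely ARPC1A or ARPC1B, ARPC5 or ARPC5L, and ACTR3 or ACTR3B. ARPC1B is the form known for blood cells, since people who lack it have an immune and platelet disorder. The complex is inactive until a promoting factor of the WASP or WAVE families or the WASH complex engages it.

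A barcode was kept if it had 200 or more genes and no more than 10% of its UMIs from mitochondrial genes. A kept cell was classed as a microglial cell if 6 microglial genes (*P2ry12*, *Gpr34*, *Tmem119*, *Siglech*, *Fcrls* and *Olfml3*) gave at least 0.5% of its UMIs and *S100a8* and *S100a9* under 1%, as a neutrophil if *S100a8* and *S100a9* gave at least 3%, and otherwise as another cell. In WT this gave 6180 microglia (87.9% of 7032 kept cells), 116 neutrophils (1.65%) and 736 other cells (10.5%). In LI it gave 1950 microglia (24.9% of 7817), 3622 neutrophils (46.3%) and 2245 other cells (28.7%), although both samples are labelled microglia and the CD45low gate should leave out most neutrophils. Median depth was between 3640.5 and 6403 UMIs per cell over the 6 sums of class and library, and 12 barcodes occurred in both libraries. The class names were checked on genes that the rule did not use. The 5 microglial check genes (*Cx3cr1*, *Csf1r*, *C1qa*, *Sall1* and *Trem2*) gave 1.85% and 2.19% of the UMIs of microglia in WT and LI, and the 9 neutrophil check genes, among them *Ngp*, *Camp* and *Retnlg*, gave 8.27% and 9.71% of those of neutrophils. In the WT neutrophils, however, the microglial check genes stood at 20.5% of their microglial level, against 3.83% in LI. Leaving out the 11 of 116 and 57 of 3622 neutrophils that also had at least 0.5% of microglial UMIs lowered these values to 11.5% and 2.54%, and values without those cells are given where they matter. In other cells the same check genes gave 0.749% of UMIs in WT and 0.141% in LI. How much of this is RNA from microglia was not tested. All intervals are 95% intervals for counting error, exact but for the Newcombe intervals of differences between shares, and with 1 library per genotype no test between genotypes or classes was possible.

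The genes lie on 5 chromosomes of mm10. The paralogs *Arpc1a* (chromosome 5, 145083830 to 145108761) and *Arpc1b* (chromosome 5, 145114215 to 145130705) are neighbours on the plus strand, 5453 bases apart, so their different use across classes, described below, divides a tandem pair. *Arpc5* is on chromosome 1 (152766542 to 152775597) and *Arpc5l* on chromosome 2 (39005348 to 39015877). Coding sequences of the pairs were 70.9% identical for *Arpc1b* and *Arpc1a*, 69.5% for *Arpc5* and *Arpc5l* and 76.3% for *Actr3* and *Actr3b*, and the longest run of bases shared by any of their transcripts was 21, 21 and 20 bases, so that a read of usual length belongs to 1 member of a pair. *Arpc4* overlaps *Ttll3* on the same strand at its 3′ end, *Arpc3* overlaps a sense intronic RNA (*Gm42829*), *Arpc5l* overlaps *Wdr38*, and reads in those overlaps may be lost or shared.

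RefSeq's promoter table for GRCm38.p6 held 8 of the 10 genes, all but *Actr3b* and *Arpc5l*. The core of each promoter, 60 bases before to 30 bases after the start in the direction of the gene, is shown because these windows share a short element. Capitals mark the 6 bases GGAAGT, the core of the motif bound by ETS factors such as PU.1 and GABPA, on either strand (ACTTCC).
Actr2, chr11:20112922-20113011, minus strand: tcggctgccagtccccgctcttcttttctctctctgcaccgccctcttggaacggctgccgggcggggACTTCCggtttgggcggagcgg
Actr3, chr1:125435698-125435787, minus strand: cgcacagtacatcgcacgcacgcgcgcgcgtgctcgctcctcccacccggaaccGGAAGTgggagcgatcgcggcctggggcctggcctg
Arpc1a, chr5:145083809-145083898, plus strand: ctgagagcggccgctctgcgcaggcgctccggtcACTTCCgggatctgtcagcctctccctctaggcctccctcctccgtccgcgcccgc
Arpc1b, chr5:145114196-145114285, plus strand: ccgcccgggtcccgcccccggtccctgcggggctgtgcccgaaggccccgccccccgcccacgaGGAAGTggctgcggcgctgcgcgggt
Arpc2, chr1:74236457-74236546, plus strand: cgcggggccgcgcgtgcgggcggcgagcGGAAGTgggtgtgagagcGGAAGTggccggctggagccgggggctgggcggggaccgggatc
Arpc3, chr5:122391818-122391907, plus strand: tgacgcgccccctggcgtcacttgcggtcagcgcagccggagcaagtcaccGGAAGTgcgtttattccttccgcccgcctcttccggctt
Arpc4, chr6:113378053-113378142, plus strand: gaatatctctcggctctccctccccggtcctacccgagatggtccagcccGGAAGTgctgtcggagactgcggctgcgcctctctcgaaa
Arpc5, chr1:152766482-152766571, plus strand: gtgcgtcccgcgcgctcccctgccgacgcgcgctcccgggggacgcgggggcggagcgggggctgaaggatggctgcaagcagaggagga
GGAAGT was present in 7 of these 8 windows, against 9.99% of the 32851 promoter windows in the table, and the exception was *Arpc5*. *Arpc2* held it at 2 places. The 4 other motifs searched, also on both strands, were GAGGAA (1 of 8 windows, in *Arpc1b*, where it overlaps GGAAGT, and 9.45% of all windows), GGGCGG (5 of 8 and 22.0%), CCAAT (0 of 8 and 14.0%) and TATAAA (0 of 8 and 4.78%). The windows of the 8 genes had between 63.3% and 83.3% G and C, and the median of all windows was 55.6%, which bears on how often GC-rich letters occur by composition. The motifs were chosen after the expression values were seen, and a match is a description of letters, not evidence of a bound factor.

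*Arpc2* led in most sums and *Actr3b* was close to absent. *Arpc2*, the core subunit, had 693 CPM in WT microglia and 685 in LI microglia, 1126 and 1073 in neutrophils and 936 and 1169 in other cells. It was the highest of the 10 genes in 5 of the 6 sums, and in LI other cells it came just below *Arpc1b* (1193 CPM, interval 1177 to 1209, against 1154 to 1185 for *Arpc2*). At the low end of the expressed genes, *Arpc1a* ranged from 71.9 to 125 CPM and *Arpc5l* from 41.1 to 127 CPM over the 6 sums. These orders compare UMIs of different genes, whose capture at the 3′ end can differ.

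**Figure D1:**
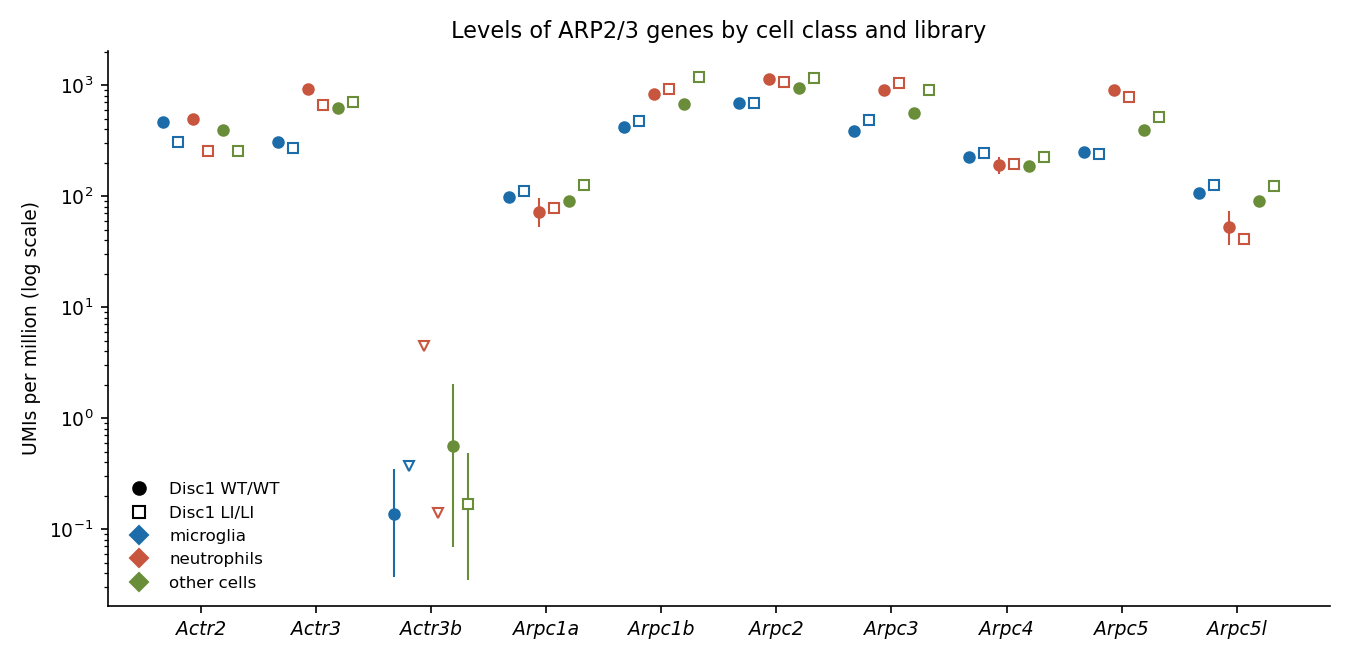
CPM (counts per 1000000 UMIs, log scale) of the 10 ARP2/3 genes in microglia, neutrophils and other cells of the WT (filled circles) and LI (open squares) library, with 95% exact Poisson intervals for counting error. Open triangles mark sums with 0 UMIs, drawn at 3 counts. *Actr3*, *Arpc1b*, *Arpc3* and *Arpc5* sit higher in neutrophils than in microglia, *Arpc5l* sits lower, and *Actr3b* lies far below the other genes in each class.

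The order of the genes differed between microglia and the other classes. In WT microglia it ran *Arpc2*, *Actr2*, *Arpc1b*, *Arpc3*, *Actr3*, *Arpc5*, *Arpc4*, *Arpc5l*, *Arpc1a* and *Actr3b*, and the intervals of neighbours did not overlap. In LI microglia *Arpc3* (485 CPM) and *Arpc1b* (478) had overlapping intervals, as did *Arpc4* (246) and *Arpc5* (242), and *Actr2* (308) had moved from the second to the fourth place. In WT neutrophils *Actr3* (926), *Arpc3* (902), *Arpc5* (902) and *Arpc1b* (838) could not be ordered beyond their intervals. *Actr2* was sixth in the neutrophils of both libraries and *Arpc4* seventh.

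Neutrophils had a higher summed ARP2/3 level than microglia. All 10 genes together gave 2949 CPM in WT microglia and 2950 in LI microglia, 5504 and 5043 in neutrophils, and 3954 and 5214 in other cells. With each cell thinned to 1000 UMIs, which leaves out 217 of the kept cells as too shallow, a microglial cell had a median of 2 of the 10 genes detected in either library and a neutrophil a median of 4. No ARP2/3 UMI was left in 5.76% and 4.97% of the thinned microglia and in 1.74% and 0.746% of the thinned neutrophils of WT and LI. In a sum of UMIs, more RNA of a gene per cell and less RNA of all other genes cannot be told apart.

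*Arpc5*, a peripheral subunit that links ARP2 to the core, differed most between neutrophils and microglia among the 10 genes. It had 248 CPM in WT microglia and 242 in LI microglia, against 902 and 777 in the neutrophils. The log2 ratio of neutrophils over microglia was 1.86 (interval 1.74 to 1.98) in WT and 1.68 (1.62 to 1.75) in LI. *Actr3* had log2 ratios of 1.59 (1.47 to 1.71) and 1.29 (1.22 to 1.35), from 308 to 926 CPM and from 270 to 658 CPM. *Arpc3*, the subunit that bridges ARP3 to the rest of the complex, had 1.23 (1.11 to 1.35) and 1.10 (1.05 to 1.14), from 384 to 902 and from 485 to 1036 CPM. These were the 3 genes at least 2-fold higher in neutrophils in both libraries.

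*Arpc1b* lay just under that fold, at 2.00-fold in WT (419 to 838 CPM, log2 ratio 0.998) and 1.95-fold in LI (478 to 931 CPM), and *Arpc2* was 1.62- and 1.57-fold higher. Without the neutrophils that carried microglial UMIs, the log2 ratios of *Arpc1b* were 1.09 and 0.97. *Arpc5l* was the single gene at least 2-fold lower in neutrophils in both libraries, at 107 against 52.5 CPM in WT (log2 ratio −1.03, interval −1.56 to −0.56) and 127 against 41.1 CPM in LI (−1.63, −1.76 to −1.5), and the ratio in WT was −1.49 without those cells. The other log2 ratios were −0.44 and −0.51 for *Arpc1a*, −0.26 and −0.35 for *Arpc4*, and 0.10, with an interval that held 0, and −0.26 for *Actr2*.

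These ratios have to be read against all genes. Among the 3332 genes that reached 50 CPM in either class of each library, 13% were at least 2-fold higher in neutrophils in both libraries and 45.4% at least 2-fold lower. The median log2 ratio of all these genes was −0.95 in WT and −1.14 in LI, and that of the 9 ARP2/3 genes with at least 10 UMIs was 0.70 and 0.65. A CPM value also depends on what else a class expresses, so the scaling matters here. TMM scaling, which sets the middle of the genes level, raised each ratio by 0.89 in WT and 1.32 in LI, and with it the share of calls that were higher in neutrophils went from 22.2% to 58.2% over all genes. Under TMM the calls among the ARP2/3 genes were *Actr3*, *Arpc1b*, *Arpc2*, *Arpc3* and *Arpc5*, all higher, with none lower. *Actr2*, *Arpc1a* and *Arpc4* changed direction with the scaling in LI, and *Arpc1a* and *Arpc4* also in WT, so no direction is given for them.

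In other cells *Actr3* differed most from microglia. It had 626 CPM in WT and 702 in LI other cells, 2.03- and 2.60-fold above microglia, and was the 1 ARP2/3 gene of 9 past 2-fold in both libraries. Of 3261 genes tested the same way, 9.14% were at least 2-fold higher and 15.6% at least 2-fold lower in other cells. In LI alone, *Arpc1b* (2.5-fold) and *Arpc5* (2.16-fold) were also past that size, against 1.62-fold and 1.59-fold in WT. TMM scaling raised these log2 ratios by 0.12 in WT and 0.37 in LI and the share of calls that were higher from 37.0% to 47.9%, and *Actr3* was again the single ARP2/3 gene past 2-fold in both.

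The share of each paralog is a ratio within the same cells and does not depend on how libraries are scaled. *Arpc1b* gave 81.1% (80.4 to 81.7, exact binomial) of the *Arpc1a* and *Arpc1b* UMIs in WT microglia and 81.2% (80.1 to 82.3) in LI microglia. It gave 92.1% (89.7 to 94.1) and 92.3% (91.9 to 92.7) in neutrophils, and 88.3% and 90.5% in other cells. The difference between neutrophils and microglia was 11.0 percentage points (Newcombe interval 8.52 to 13) in WT and 11.1 (9.96 to 12.3) in LI. In other words, microglia had about 4.28 *Arpc1b* UMIs for each *Arpc1a* UMI and neutrophils 11.6 in WT, and 4.32 and 12 in LI. The share was nearly the same in both libraries in microglia, with a difference of 0.14 points (−1.15 to 1.39), and in neutrophils, with 0.22 points (−1.71 to 2.66), while in other cells it was 2.18 points higher in LI (0.96 to 3.49).

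The *Arpc5* pair separated the classes further. *Arpc5* gave 69.8% (68.9 to 70.7) of the *Arpc5* and *Arpc5l* UMIs in WT microglia and 65.5% (63.8 to 67.2) in LI microglia. In neutrophils the share was 94.5% (92.4 to 96.1) and 95% (94.6 to 95.3), and in other cells 81.4% and 80.7%. Neutrophils exceeded microglia by 24.7 points (22.5 to 26.5) in WT and by 29.4 points (27.7 to 31.2) in LI. Without the neutrophils that also carried microglial UMIs, the differences were 26.4 and 29.5 points. The microglial share was 4.22 points lower in LI than in WT (−6.15 to −2.33 for LI minus WT).

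*Actr3b* was at or near 0 in each class. It had 9 UMIs in all, which were 4 in WT microglia, 2 in WT other cells and 3 in LI other cells. In the neutrophils of LI none of 3622 cells had a UMI, with an exact interval that reached 0.171 CPM. The 116 WT neutrophils also had 0 UMIs, with an interval that reached 5.53 CPM. *Actr3* therefore gave at least 99.9% of the pair's UMIs in each sum, and no difference between classes could be seen at this depth, with an interval for neutrophils minus microglia of −0.57 to 0.11 points in WT. With so few UMIs no ratio is given for *Actr3b*.

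**Figure D2:**
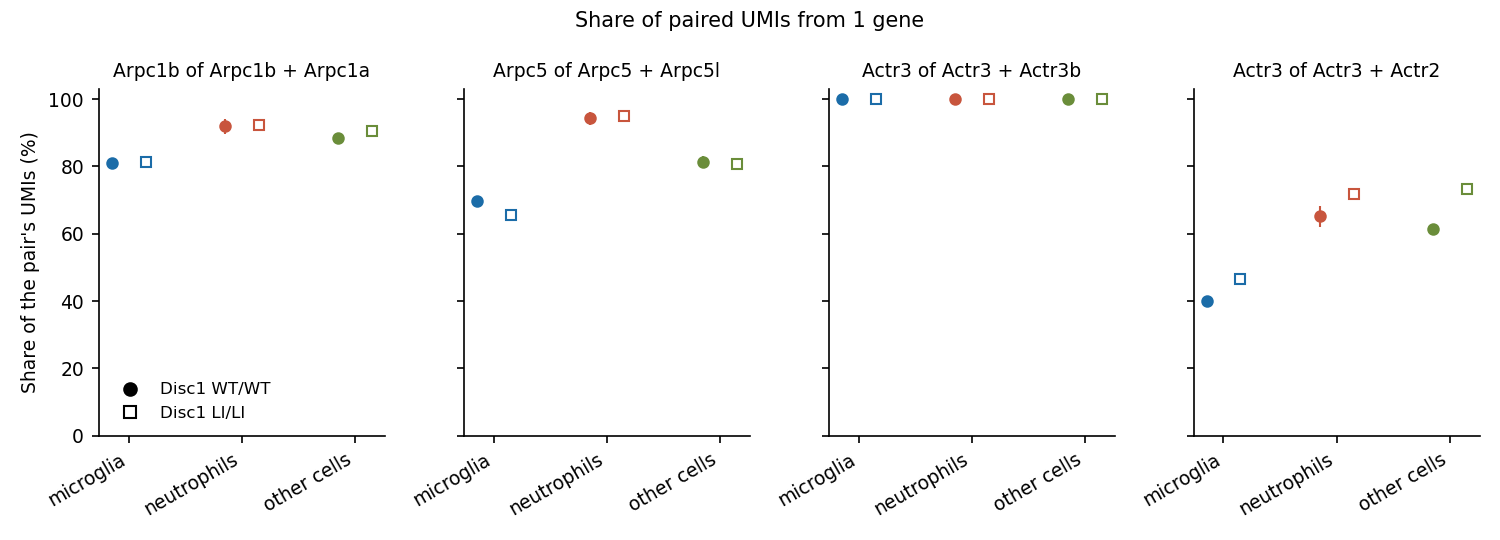
Share (%) of the UMIs of a pair of genes that came from the gene named first, in microglia, neutrophils and other cells of the WT (filled circles) and LI (open squares) library, with 95% exact binomial intervals. *Arpc1b* goes from about 81% in microglia to 92% in neutrophils, *Arpc5* from 69.8% and 65.5% to 94.5% and 95%, *Actr3* stays at 99.9% or more against *Actr3b*, and against *Actr2* it rises from 39.9% and 46.7% to 65.1% and 71.9%.

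*Actr2* and *Actr3* are not paralogs that replace each other, since each complex holds 1 of both, but their RNA stood in different ratios in the classes. This pair was added after the values were seen. In WT, *Actr3* gave 39.9% of the *Actr2* and *Actr3* UMIs in microglia, 65.1% in neutrophils and 61.3% in other cells. In LI it gave 46.7%, 71.9% and 73.3%. The difference between neutrophils and microglia was 25.2 points in both libraries (22.1 to 28.3 and 23.6 to 26.7). Microglia were thus the class in which *Actr2* outnumbered *Actr3*, in both libraries.

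Seen by subunit position, with paralogs added together, ARP2 made up 15.7% of all ARP2/3 UMIs in WT microglia and 10.4% in LI microglia, 9.01% and 5.11% in neutrophils, and 9.99% and 4.91% in other cells. ARPC4 made up 7.68% and 8.33% in microglia and 3.43% and 3.83% in neutrophils. ARPC5 went the other way, with 12.1% and 12.5% in microglia and 17.3% and 16.2% in neutrophils. The subunits of a complex that holds 1 of each were therefore not at equal UMI levels in any class, and for these 3 positions neutrophils differed from microglia in the same direction in both libraries.

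Cells thinned to 1000 UMIs were too shallow to show whether a cell used both paralogs. Detection of both in 1 cell was not counted before thinning. With each cell thinned to 1000 UMIs, *Arpc5* alone was found in 19.3% of WT and 17.8% of LI microglia, *Arpc5l* alone in 8.15% and 8.95%, both in 2.27% and 2.79%, and neither in 70.3% and 70.4%. In neutrophils *Arpc5* alone was found in 51.3% and 56.9%, *Arpc5l* alone in 3.48% and 1.35%, and both in 0 of 115 cells (up to 3.16% by the exact interval) and in 1.58% of 3618 cells. For the ARPC1 pair, *Arpc1a* alone was found in 6.12% and 6.36% of microglia and in 4.35% and 3.01% of neutrophils, and both genes in 2.95% and 3.93% of microglia. Before thinning, *Arpc5l* was detected in 37.9% and 40.0% of microglia at median depths of 4271 and 3787.5 UMIs, and in 20.7% and 16.1% of neutrophils at 4844.5 and 4194 UMIs. *Arpc5* was detected in 63.3% and 59.6% of microglia and in 94% and 93.6% of neutrophils. The *Arpc5l* share of neutrophils stands on RNA that can also come from other cells, since the microglial check genes were found there too, and how much of it does was not tested.

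**Figure D3:**
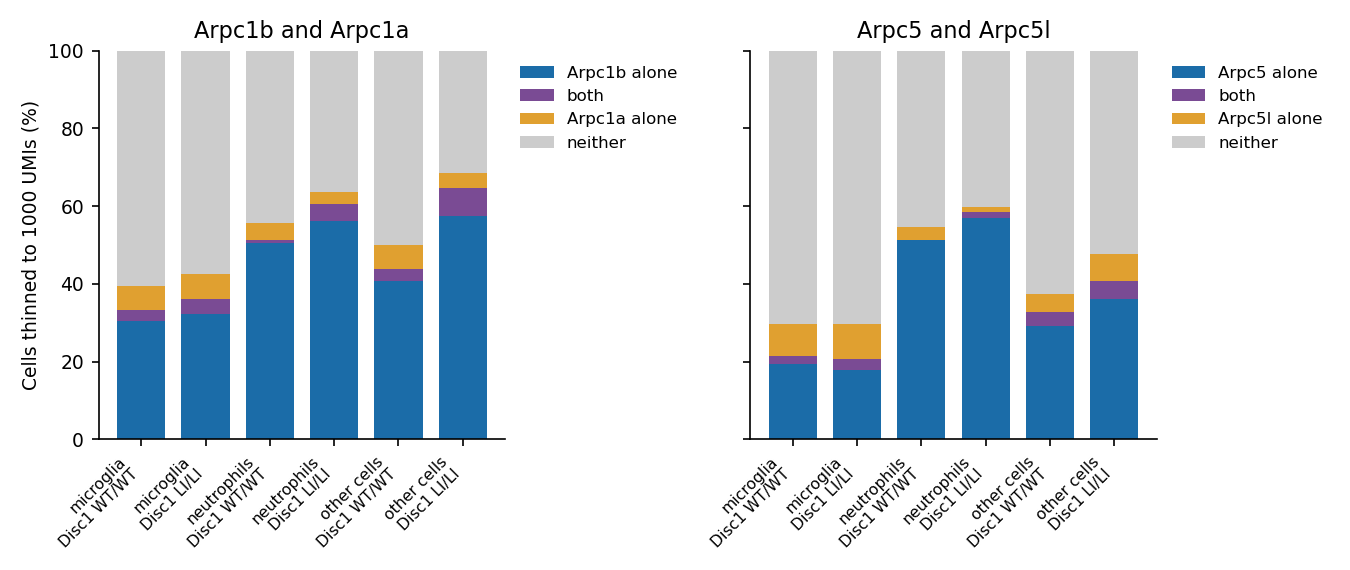
Share (%) of cells, each thinned to 1000 UMIs, in which the first gene alone, both, the second gene alone or neither of a paralog pair was detected, for *Arpc1b* with *Arpc1a* and for *Arpc5* with *Arpc5l*, by class and library. Cells with *Arpc5l* alone are 8.15% and 8.95% of microglia and 3.48% and 1.35% of neutrophils, and in each microglial bar more cells show neither gene of a pair than show either.

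Between the libraries, *Actr2* was lower in LI in each class. It fell from 464 CPM (457 to 472) to 308 CPM (296 to 320) in microglia, from 496 (444 to 553) to 258 (251 to 264) in neutrophils and from 395 (375 to 416) to 256 (249 to 264) in other cells. The intervals of the libraries did not overlap in any class, and the log2 ratios were −0.59 (−0.65 to −0.53), −0.95 (−1.11 to −0.78) and −0.63 (−0.71 to −0.54). In thinned cells *Actr2* was detected in 36.3% of WT and 26.4% of LI microglia, and in 40.0% and 23.7% of neutrophils. It was the 1 ARP2/3 gene of 9 at least 1.5-fold lower in each class. The share of all genes lower by that size in every class at once was not counted, and the shares class by class follow.

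Among all genes that reached 50 CPM in either library, 13.1% of 3556 genes in microglia were at least 1.5-fold lower in LI and 1.27% higher, 35.2% of 2433 lower and 6.17% higher in neutrophils, and 27.9% of 3256 lower and 17.6% higher in other cells. TMM scaling raised the log2 ratios by 0.13, 0.54 and 0.48 in the 3 classes and moved the share of calls that were higher from 8.81% to 28.3%, from 14.9% to 70.3% and from 38.6% to 75.9%. Under TMM *Actr2* stayed below 0 in each class and was past 1.5-fold in none, and the ARP2/3 genes past 1.5-fold were none in microglia, 3 in neutrophils (*Arpc1a*, *Arpc1b* and *Arpc3*) and 8 of 9 in other cells (all but *Actr2*), all higher in LI. What scaling cannot change is the place of *Actr2* among the other 8 expressed genes, which was looked at after the values were seen. It lay 0.74 below their median log2 ratio in microglia, 0.93 below in neutrophils and 1.06 below in other cells, and below the lowest of them in each class.

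Gene length moved with these ratios over all genes, which is a correlation across genes of 2 libraries and not across samples. Spearman's rho between the length of a gene from start to end and its log2 ratio was −0.66 over 3555 genes in microglia, −0.53 over 2431 in neutrophils and −0.42 over 3253 in other cells. With genes in 3 equal groups by length, the median log2 ratio of the longest group was −0.44, −0.70 and −0.55, and that of the shortest 0.17, 0.12 and 0.35. *Actr2* (50610 bases, chromosome 11, 20062304 to 20112913) and *Actr3* (42823 bases, chromosome 1, 125392905 to 125435727) were the expressed ARP2/3 genes in the longest group in each class, and the other expressed ones span 9056 to 32126 bases. *Actr3* had a log2 ratio of −0.19 in microglia, and of −0.06 (−0.13 to 0.008) with TMM scaling. The part of length in the *Actr2* and *Actr3* values was not tested.

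The other expressed subunits were close to level in microglia. *Arpc2* had a log2 ratio of −0.02 (−0.06 to 0.03) and *Arpc5* −0.04 (−0.11 to 0.03). *Arpc3* had 0.33 (0.28 to 0.39), *Arpc5l* 0.24 (0.14 to 0.34), *Arpc1b* 0.19 (0.14 to 0.24), *Arpc1a* 0.17 (0.07 to 0.28) and *Arpc4* 0.12 (0.04 to 0.19). None reached 1.5-fold. The median of the 9 genes was 0.12, beside −0.12 for all genes tested.

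In neutrophils the WT sum rests on 116 cells, and the makeup of the class differed between the libraries. The 6 granulocyte progenitor markers, among them *Mpo* and *Elane*, gave 0.0737% of its UMIs in WT and 0.408% in LI. The 6 markers of dividing cells, among them *Mki67*, gave 0.0030% and 0.0423%. The part of this makeup in the neutrophil ratios, that of *Actr2* included, was not tested. The median of the 9 genes was −0.07, beside −0.35 for all genes. The median was 0.47 with TMM scaling and 0.06 without the cells that carried microglial UMIs, so no direction is given for it. Without those cells *Actr2* had −0.93 and *Actr3* −0.58. *Actr3*, at −0.49, became 0.0498 with TMM, and *Arpc5*, at −0.22 (−0.33 to −0.10), became 0.33 with TMM and 0.10 with thinned cells, so no direction is given for either. *Arpc3* (0.20) and *Arpc1b* (0.15) had intervals above 0, which for *Arpc1b* held 0 without the cells that carried microglial UMIs (0.07, −0.06 to 0.20), and those of *Arpc1a*, *Arpc2* and *Arpc4* held 0. *Arpc5l* had −0.35 (−0.84 to 0.18), and 0.08 without the cells that carried microglial UMIs.

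In other cells 8 of the 9 genes had higher levels in LI, with a median log2 ratio of 0.40 beside −0.02 for all genes. *Arpc1b* went from 679 to 1193 CPM (0.81, 0.75 to 0.87) and *Arpc3* from 558 to 896 CPM (0.68, 0.61 to 0.75), and these were the 2 of 9 at least 1.5-fold higher, where 17.6% of all genes were. With TMM scaling 8 of 9 were, and 1427 of all 3256 genes. The makeup of this class differed between the libraries, as the subgroups below show, and so did its share of microglial check genes.

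**Figure D4:**
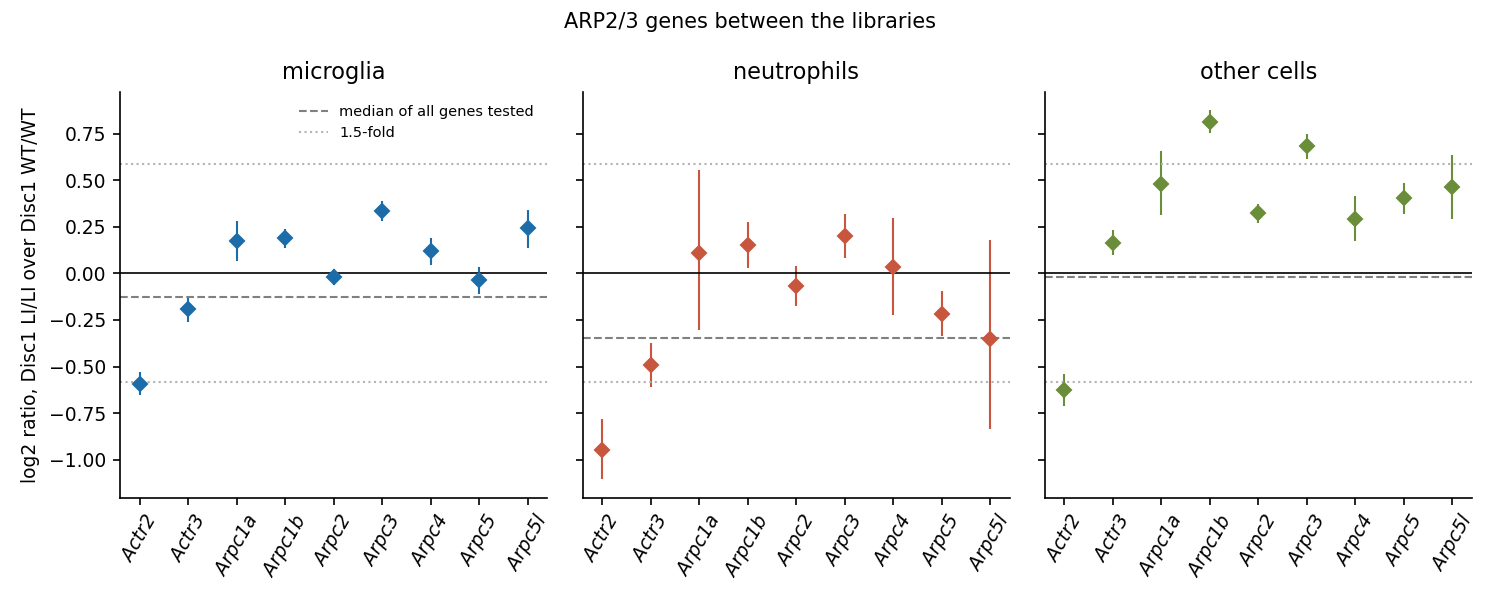
log2 ratio of LI over WT for the 9 expressed ARP2/3 genes in microglia, neutrophils and other cells, with 95% exact intervals for counting error. The dashed line is the median of all genes tested and the dotted lines mark 1.5-fold. *Actr2* is the lowest point in each panel, at −0.59, −0.95 and −0.63, and *Arpc1b* and *Arpc3* lie above 1.5-fold in other cells.

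Other cells were divided by marker lists, each cell going to the list with at least 3 detected markers and more than any other. Cells with monocyte markers were 5.57% of the other cells in WT (41 cells) and 54.3% in LI (1219 cells). Cells with border macrophage markers were 20.5% (151) and 1.20% (27). Those with dendritic cell markers, which include MHC class II genes, were 23.4% (172) and 9.0% (202), and those with B cell markers 1.90% (14) and 7.26% (163). Cells without a list were 39.0% and 17.6%, and hemoglobin genes gave 2.59% and 2.17% of their UMIs, against 0.792% or less elsewhere. Cells with T cell markers (49 and 78) and NK cell markers (18 and 63) made up the rest of the compared subgroups. Subgroups of under 10 cells are not described, which leaves out the 4 WT cells with granulocyte progenitor markers. The 98 LI cells with these markers (4.37%) could therefore not be compared. They gave 2608476 of the 17938822 UMIs of LI other cells.

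*Actr2* was lower in LI in each of the 7 subgroups that could be compared, and the interval lay below 0 in 6 of them. It went from 538 to 291 CPM in cells with monocyte markers (log2 ratio −0.89, −1.09 to −0.68), from 365 to 151 with border macrophage markers (−1.28, −2.08 to −0.56), from 329 to 191 with T cell markers (−0.78) and from 372 to 234 with dendritic cell markers (−0.67). The B cell subgroup, with 14 WT cells, had −0.77 (−1.48 to 0.02). With microglia and neutrophils, *Actr2* was therefore lower in LI in all 9 groups of cells compared, at CPM scaling. These groups come from the same pool of each genotype and do not repeat the comparison. How many of all genes were lower in as many groups was not counted.

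*Arpc1b* had an interval above 0 in 3 of the 7 compared subgroups and below 0 in none. In cells with monocyte markers it had 1348 CPM in WT and 1447 in LI (0.10, −0.02 to 0.23), and with border macrophage markers 540 and 523 (−0.05, −0.47 to 0.36). It was higher in LI in cells with dendritic cell markers (634 and 968, 0.61, 0.47 to 0.75), in those without a list (561 and 991, 0.82) and in those with T cell markers (450 and 569, 0.34, 0.01 to 0.67). Monocyte-marker cells thus had the highest *Arpc1b* of the compared subgroups in both libraries and were also the subgroup whose share differed most. How much of the value for all other cells comes from this shift in makeup was not tested.

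Among the subgroups, cells with B cell markers stood out in the *Arpc5* pair. *Arpc5* gave 50.9% (36.8 to 64.9) of the pair's UMIs in the 14 WT cells and 54.5% (50.1 to 58.8) in the 163 LI cells, with *Arpc5l* at 465 and 278 CPM. The next highest *Arpc5l* levels were 183 and 169 CPM, in cells with NK cell markers. The LI interval of the B cell subgroup lay below those of all subgroups but that of the 27 cells with border macrophage markers (67.6%, 50.2 to 82.0). Monocyte-marker cells had shares of 92.2% (88.5 to 95) and 86.3% (85.5 to 87.1), beside 94.5% and 95% in neutrophils. Border macrophage-marker cells had 88.3% (83.5 to 92.2) in WT, above the microglial 69.8%. *Arpc1b* shares varied less, from 84.3% to 93.2% in all compared subgroups but the 27 LI border macrophage-marker cells (79.7%, 68.8 to 88.2).

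**Figure D5:**
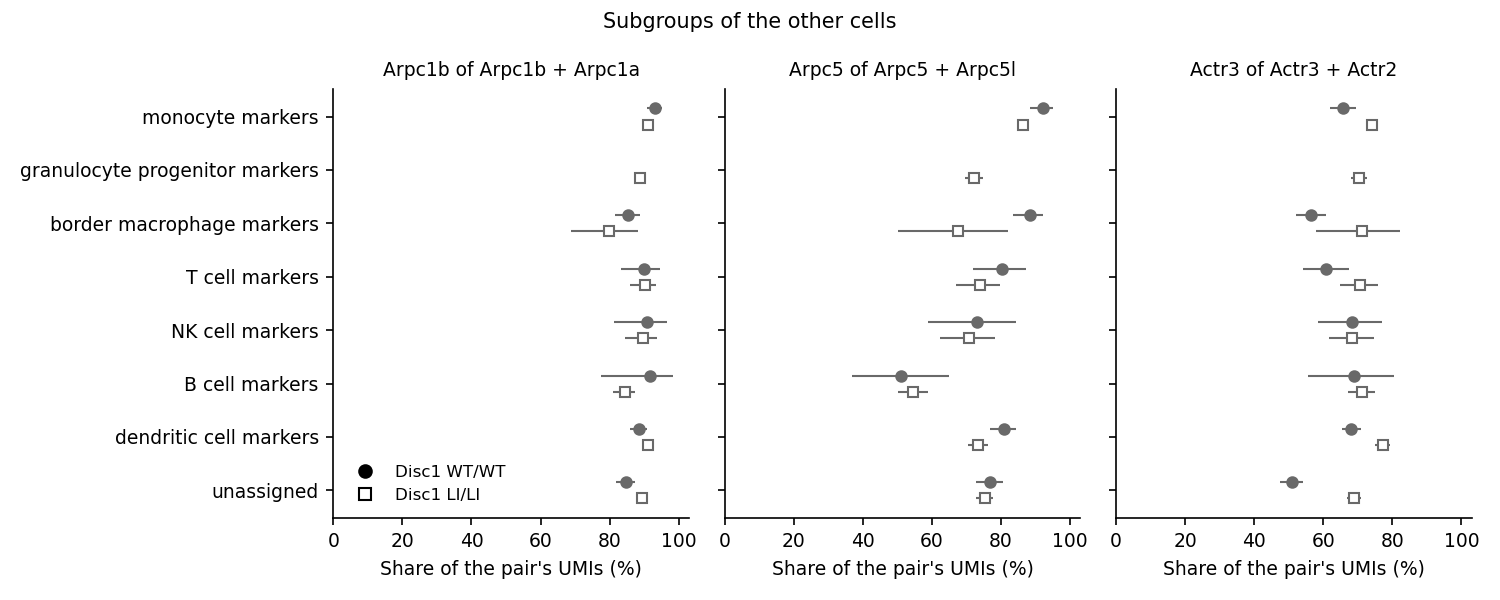
Share (%) of a pair's UMIs from the gene named first, in subgroups of the other cells with at least 10 cells in a library, for *Arpc1b* with *Arpc1a*, *Arpc5* with *Arpc5l* and *Actr3* with *Actr2*, with 95% exact binomial intervals (filled circles, WT, and open squares, LI). Cells with B cell markers have the lowest *Arpc5* share, at 50.9% and 54.5%, and *Actr3* gives more than 50% of the *Actr2* and *Actr3* UMIs in each subgroup.

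The other genes of branched actin were taken from 3 lists. Of 14 promoting factors and partners, 5 were high enough to be compared between neutrophils and microglia in both libraries, of which 0 were at least 2-fold higher and 1 lower, where 13% of all genes were higher and 45.4% lower. That was *Washc4*, a subunit of the WASH complex of endosomes, at 220 CPM in WT microglia against 65.9 in neutrophils and at 123 against 24.2 in LI. Of 10 inhibitors and branch removers, 2 could be compared and both were higher in neutrophils. *Gmfg*, which removes branches in blood cells, had log2 ratios of 2.23 and 2.24, and *Coro1a*, a coronin of leukocytes, 1.34 and 1.20. Of 10 genes of actin and its handlers, 2 of 10 were higher, *Actg1* (2.10 and 2.09) and *Pfn1* (1.18 and 1.01), and 1 was lower, the capping subunit *Capza2* (−1.60 and −2.15). These calls are at CPM scaling. TMM scaling raises each ratio by 0.89 in WT and 1.32 in LI. With it *Washc4* and *Capza2* stay below 0, and neither is 2-fold lower in both libraries. The list genes called higher under TMM were not counted.

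In other cells over microglia, *Washc4* was again lower (−1.14 and −1.75) and *Actg1* (1.57 and 2.44) and *Tmsb10*, a thymosin that binds actin monomers (3.45 and 4.13), were higher, which is 1 of 17 list genes lower and 2 higher, where 15.6% and 9.14% of all genes were. Between the libraries, *Washc4* was lower in LI by more than 1.5-fold in microglia (−0.84), neutrophils (−1.45) and other cells (−1.46), like *Actr2*, and *Tmsb10* was higher in each (0.90, 1.11 and 1.58). In neutrophils *Was*, *Capza1* (−0.66), *Capza2* (−0.87) and *Cap1* (−0.68) were also at least 1.5-fold lower in LI, so that 2 of 5 promoting factors, 0 of 2 inhibitors and 3 of 10 actin genes were, where 35.2% of all genes were. In other cells *Washc2* (−0.65) and *Gmfb* (−0.79) were also lower and *Gmfg* (0.74), *Coro1a* (1.06) and *Actg1* (1.13) higher, so that 3 of 18 genes of the lists were lower and 4 higher, where 27.9% and 17.6% of all genes were. In microglia *Washc4* was the 1 of 19 past 1.5-fold lower and *Tmsb10* the 1 higher, where 13.1% and 1.27% of all genes were. These calls too are at CPM scaling. The TMM shifts are 0.13 in microglia, 0.54 in neutrophils and 0.48 in other cells. With them *Washc4* stays more than 1.5-fold lower in LI in each class, and the other list genes called lower in LI do not. The list genes called higher in LI under TMM were not counted. List medians were taken over genes with at least 10 UMIs. The microglial median log2 ratio was −0.31 for 13 promoting factors (14 in other cells), −0.33 for 9 inhibitors and 0.18 for 10 actin genes. It was 0.12 for the 9 ARP2/3 genes and −0.12 for all genes that reached 50 CPM. In neutrophils the list medians were −0.59, −0.51 and −0.005, and in other cells −0.33, −0.15 and 0.33. The lists include genes under 50 CPM, so their medians are not like for like with that of all genes. Of the inhibitors, 3 reached 50 CPM in microglia, at −0.33 (*Gmfb*), 0.25 (*Gmfg*) and 0.27 (*Coro1a*). In neutrophils 2 did, at 0.26 (*Gmfg*) and 0.12 (*Coro1a*). *Was*, the promoting factor of blood cells, went from 148 to 103 CPM in microglia and from 151 to 84.2 CPM in neutrophils.

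For each expressed gene, the nearest profiles were sought among 3541 genes as the smallest root mean square difference of log2 CPM over the 6 sums, after centring each gene on its own mean. *Arpc3* was nearest to *Myl12b*, a myosin light chain, with a difference of 0.05, *Arpc1b* to *Serf2* (0.07) and *Sh3bgrl3* (0.10), *Arpc2* to *Rab8a* (0.08), *Arpc4* to *Vps28* (0.07) and *Actr2* to *Eif4g2* (0.07) and *Sh3kbp1* (0.09). *Arpc1a* was nearest to *Mrps15* (0.07), *Arpc5l* to *Ostc* (0.09), *Actr3* to *Foxn2* (0.13) and *Arpc5* to *1810058I24Rik* (0.13). No ARP2/3 gene was among the 3 nearest of another. The closest members to each other were *Arpc1a* and *Arpc4* (0.18). The nearest member stood at place 20 for *Actr3* (*Arpc5*), 30 for *Arpc1b* (*Arpc3*), 33 for *Arpc3* (*Arpc1b*) and 41 for *Arpc5* (*Actr3*), between 70 and 74 for *Arpc1a*, *Arpc2* and *Arpc4*, and at 534 for *Actr2* and 680 for *Arpc5l*. These likenesses rest on 6 sums from 2 libraries, which share depth and scaling within a library.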

How the data were processed

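Cell Ranger 6.1.2 (per the file headers), which aligns with STAR, was used by the authors with mm10 to count UMIs of each gene in each barcode, and they deposited these counts without normalization for 7038 WT and 7834 LI barcodes, with 33601957 and 47731571 UMIs. Their processing notes also name Seurat 3.0.1. Per the labels, cells were loaded on Chip B or Chip G. Which chip held which library is not given in the sources used here, so chip and genotype cannot be told apart. Doublets were not removed, and leaving out the 5% of cells with the most UMIs stands in for that.

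Cells were classed one by one by the marker shares stated in the report, counts were summed per class and library, and CPM, exact Poisson, Clopper-Pearson, conditional ratio and Newcombe intervals were computed in Python 3.11.15 (pandas 2.3.3, scipy 1.17.1, numpy 2.4.6, with matplotlib 3.10.9 for plots). PCR copies are removed by UMIs, and the intervals cover counting error only. TMM factors came from edgeR 4.0.16 (R 4.3.3). A gene with 0 counts was set to 3 counts in counts over all genes. The named genes were the 10 members, genes of the actin lists past the fold and, for profiles, the 3 nearest genes. Members and lists were chosen with earlier results of these data known. Gene positions came from GENCODE vM21 (32158 of 32285 genes matched by identifier) and promoters from RefSeq GRCm38.p6. Protein sequences were not used here, and 1 gene of the microglial check list is not reported here. The interval and fold scripts were tested on simulated data.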

Additional observations from a re-analysis of the deposited data

Results flagged for a closer look

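At CPM scaling the ratio of LI over WT of 2 genes had intervals for counting error on opposite sides of 0 in different classes. Under other settings this did not hold in neutrophils, nor with TMM scaling for *Actr3* in microglia. The difference itself was not tested, since each genotype is 1 library. *Actr3* had a log2 ratio of −0.19 (−0.26 to −0.12) in microglia, of −0.49 (−0.61 to −0.38) in neutrophils and of 0.17 (0.10 to 0.23) in other cells. The ratio in microglia minus that in other cells was −0.36, and that in neutrophils minus that in other cells −0.66. *Arpc5* had −0.22 (−0.33 to −0.10) in neutrophils and 0.40 (0.32 to 0.48) in other cells, a difference of −0.62. Of the 7 compared subgroups of the other cells, *Actr3* had an interval below 0 in 3 and above 0 in 1. The 3 were cells with monocyte markers (−0.32, −0.46 to −0.17), NK cell markers (−0.64, −1.06 to −0.21) and B cell markers (−0.61, −1.08 to −0.10). The 1 was the cells without a list (0.39, 0.23 to 0.55). Intervals held 0 for cells with border macrophage (−0.35), T cell (−0.16) and dendritic cell markers (−0.0008). With TMM scaling the neutrophil ratios of *Actr3* (0.0498) and *Arpc5* (0.33) were above 0, and that of *Arpc5* also with thinned cells (0.10), so that no direction is given for them there. The microglial ratio of *Actr3* was −0.06 with TMM scaling, with an interval that held 0 (−0.13 to 0.008).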

How the results depend on the processing

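The main values were recomputed with other cell filters, other class limits, thinned cells, without the deepest cells, with other scalings and with a mean over cells, and, added after the data were seen, without neutrophils that carried microglial UMIs. For a median, the range used here runs from the median of the genes' lower bounds to that of their upper bounds. Such a range is not a 95% interval of the median. Of 95 recomputed values of the medians and paralog shares, 79 stayed within this range or, for shares, within the Newcombe interval. The median for LI over WT in neutrophils was −0.07, with a range that held 0. It was above 0 in 5 recomputed values, namely with TMM scaling, with thinned cells (0.035), without the deepest cells (0.093), with reduced totals (0.049) and without cells that carried microglial UMIs (0.06). The medians of the ARP2/3 genes moved with TMM scaling to 0.25 in microglia, 0.47 in neutrophils and 0.89 in other cells for LI over WT, and to 1.59 and 1.97 for neutrophils over microglia in WT and LI. Totals without mitochondrial, hemoglobin and class rule genes gave 1.09 and 1.16 for the latter, and the mean over cells 0.82 and 0.77. In other cells the median was 0.51 with a microglial limit of 1% and 0.50 without the 5% of cells with the most UMIs. For neutrophils over microglia in LI it was 0.70 with the 1% limit, 0.75 with thinned cells and 0.72 without the deepest cells. The *Arpc5* share difference in WT was 26.9 points with thinned cells and 27.3 without the deepest cells.

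Of 453 recomputed values of single genes and of the *Actr2* and *Actr3* pair, 337 stayed within their interval. The sign changed in 12 values whose reported interval lay on 1 side of 0 and in 10 whose reported interval held 0. Among the 10, with TMM, were *Arpc2* (0.11) and *Arpc5* (0.09) in microglia and *Arpc2* (0.47) and *Arpc5l* (0.19) in neutrophils, for LI over WT. The 12 were, for LI over WT in neutrophils, *Actr3* with TMM (0.0498) and *Arpc5* with TMM (0.33) and thinned cells (0.10). For neutrophils over microglia they were, with TMM, *Arpc1a* (0.44 and 0.81) and *Arpc4* (0.62 and 0.97) in WT and LI and *Actr2* in LI (1.06), and, with the reduced totals, *Arpc4* (0.13 and 0.17) and, in LI, *Actr2* (0.26) and *Arpc1a* (0.0057). The reduced totals and TMM change the denominator alone. No paired analysis was possible because each genotype is 1 library, and for the same reason no replicate could be left out. Near the microglial limit, 293 WT and 164 LI cells had between 0.4% and 0.6% of microglial UMIs. The 116 WT neutrophils limit what can be seen there, with 35 *Arpc5l* and 48 *Arpc1a* UMIs.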
